A study of Homo sapiens with 2 samples.

Results

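The genes described here are the 5 fibroblast growth factor (FGF) receptor genes FGFR1, FGFR2, FGFR3, FGFR4 and FGFRL1, the adaptor FRS2, the co-receptor KLB, and ATE1, NSMCE4A and WDR11, the neighbours of FGFR2 in the 10q26 region of chromosome 10. They were taken by symbol, as 10 of the 19989 genes in the table, and all 10 had a row. The set was chosen by the CPM of FGFR2 in these same libraries and by function and position around it, so its levels are given as a description and no test is attached to them. The data are RNA-seq of poly(A)-selected RNA from hNCI-H716 cells, a colorectal adenocarcinoma line from the human cecum that is used as a model of the intestinal L-cell. The cells were grown in suspension, plated on Matrigel, and then kept for 48 h in DMEM with fetal bovine serum and glucose at either 5.5 mM (low) or 25 mM (high). Each concentration has 1 library, and both come from the same tumour line. The libraries hold about 21758000 estimated counts at the low and 19457000 at the high concentration. Levels are counts per 1000000 counts of the library (CPM), and levels of different genes are compared as CPM per kilobase (kb) of the longest protein-coding transcript. With 1 library at each concentration, no difference has a replicate check, and the 95% intervals given with values cover counting error only. Where a pair of values is given without further words, the first is from the low and the second from the high glucose library.

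FGFs are secreted ligands that bind receptor tyrosine kinases at the cell surface together with heparan sulphate chains. Binding brings receptors together, the kinase domains phosphorylate each other and the adaptor FRS2, and FRS2 recruits proteins that switch on RAS and the ERK kinases. FGFR1, FGFR2, FGFR3 and FGFR4 carry a kinase domain, whereas FGFRL1 binds FGFs but lacks one. KLB, or β-Klotho, is the co-receptor through which the endocrine FGFs of the bile acid and fasting responses reach their receptors. In epithelia, FGFR2 is usually made as a splice form that responds to ligands from the surrounding mesenchyme. FGFR2 is also known as a gene that is amplified in some gastric and other tumours.

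Because the receptors are paralogs, the coding sequence was examined for stretches that a read could not assign. Over all protein-coding transcripts of FGFR2, none of the 7419 different 75-base sequences, the length of the aligned reads, occurred in a protein-coding or other transcript of another gene. Of the 2392 75-base windows of its longest coding sequence, 0 lay within 2 mismatches of FGFR1, FGFR3 or FGFR4. FGFR1 came closest, with 6 mismatches in its most alike window, against 9 for FGFR3 and 13 for FGFR4. A stretch of exon 12, within the kinase domain, is shown because it holds the 75 coding bases in which FGFR2 is most alike to FGFR3 and FGFR4 taken jointly, FGFR1 not being shown, and capitals mark bases that differ from FGFR2. The FGFR2 stretch is chr10:121498505-121498579 on the minus strand of GRCh38, coding bases 1591 to 1665. The FGFR3 stretch is chr4:1805585-1805659 on the plus strand, with 10 differing bases, and the FGFR4 stretch is chr5:177095356-177095430 on the plus strand, with 15.
FGFR2: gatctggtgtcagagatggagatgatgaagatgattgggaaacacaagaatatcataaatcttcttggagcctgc
FGFR3: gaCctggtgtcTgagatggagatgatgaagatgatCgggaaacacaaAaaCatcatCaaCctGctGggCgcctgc
FGFR4: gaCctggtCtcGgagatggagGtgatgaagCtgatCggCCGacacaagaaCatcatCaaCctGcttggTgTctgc
The differing bases are spread along the stretch in FGFR4 and lie mostly in its second part in FGFR3. No 75-base sequence of FGFR1, FGFR3, FGFR4, FGFRL1, FRS2, KLB or NSMCE4A was shared with another gene. ATE1 shared 215 of 5650 (3.81%) with ATE1-AS1, and WDR11 shared 97 of 4881 (1.99%) with WDR11-AS1, and neither of those antisense genes has a row.

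FGFR2 was the highest of the 10 genes in both libraries, and one of the most abundant transcripts of the cells. In bulk RNA, more cells with a transcript and more transcript per cell cannot be told apart. The receptor gene (ENSG00000066468.22; chromosome 10 of GRCh38, 121478334 to 121598458, minus strand) reached 6430 CPM in low glucose (6397 to 6464) and 6903 CPM in high glucose (6866 to 6940). Its rank in CPM was 4 of the 19989 genes in low glucose and 3 in high glucose. FGFR2 alone took 0.642% and 0.691% of all estimated counts. Per kb, it was at 1472 and 1580 CPM, and its mean ranked 19 of the 13808 protein-coding genes that could be placed in the annotation. On chromosome 10 it ranked 1 of 534 such genes, both in CPM and per kb.

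**Figure D1:**
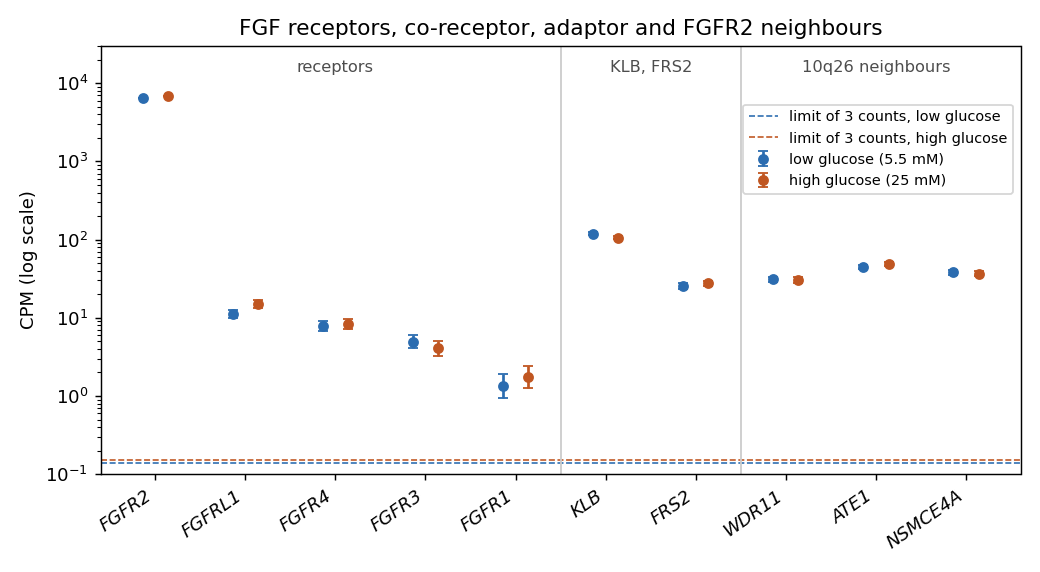
Level of each of the 10 genes in CPM (log axis) in the low and the high glucose library, with points for the values, bars for 95% Wilson intervals and dashed lines at the limit of 3 counts of 0.138 and 0.154 CPM. FGFR2 lies at 6430 and 6903 CPM, KLB is the next at 119 and 105 CPM, and FGFR1 is the lowest at 1.35 and 1.76 CPM.

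The other FGF receptor genes were expressed at low levels. FGFRL1, the receptor without a kinase domain (chromosome 4, 1009936 to 1026897, plus strand), was at 11.2 CPM (9.91 to 12.7) and 14.8 CPM (13.2 to 16.6). FGFR4, which with KLB serves the ileal hormone FGF19 (chromosome 5, 177086886 to 177098144, plus strand), was at 7.93 CPM (6.82 to 9.19) and 8.33 CPM (7.13 to 9.70). FGFR3, a receptor best known from cartilage (chromosome 4, 1793293 to 1808872, plus strand), was at 4.94 CPM (4.08 to 5.95) and 4.07 CPM (3.25 to 5.05). FGFR1, the receptor usual in mesenchyme (chromosome 8, 38400215 to 38468834, minus strand), rested on 29 and 34 estimated counts, which is 1.35 CPM (0.930 to 1.92) and 1.76 CPM (1.25 to 2.44). All of these intervals lay above the floor of 3 counts, 0.138 and 0.154 CPM, up to which a gene without any count could still be present. The opposite-strand gene LETM2 overlaps FGFR1 and was at 3.60 and 4.22 CPM, and the library kit does not keep strand. None of the 7822 75-base sequences of the protein-coding FGFR1 transcripts, on either strand, occurred in a transcript of another gene. Reads from other parts of the overlap were not examined.

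Per kb, the order of the receptors was FGFR2, FGFRL1, FGFR4, FGFR3 and FGFR1 in both libraries. FGFRL1 was at 3.09 and 4.08 CPM per kb, and FGFR4 was at 2.54 and 2.67 CPM per kb. The intervals of this pair overlapped in low glucose and were apart in high glucose. FGFR3 was at 1.11 and 0.916 CPM per kb and FGFR1 at 0.223 and 0.290 CPM per kb, and both stood apart from the receptor above them in each library. The level of FGFR2 per kb was 476 times that of FGFRL1 in low glucose and 387 times in high glucose. Against FGFR4 it was 579 and 592 times, and against FGFR1 6615 and 5444 times. All FGF receptors other than FGFR2 added to 25.5 and 28.99 CPM, so FGFR2 held 99.6% of the receptor CPM in each. With the median instead of the longest transcript length, FGFR4 came before FGFRL1, and FGFR2 was 240 times the next receptor against 426 times in the mean of both libraries.

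FGFR2 was also the highest of the receptor tyrosine kinases, the class of growth factor receptors to which it belongs. Of 58 such genes listed, 41 had a row and 27 reached 1 CPM in both libraries. FGFR2 held 83.5% and 84.2% of the CPM of the class, and the other genes of the class added to 1269 and 1300 CPM. MET, the receptor for hepatocyte growth factor, was second at 34.8 and 39.4 CPM per kb, and FGFR2 was 42.2 and 40.1 times as high. The ephrin receptor EPHA4 was next in the mean, at 17.1 and 18.9 CPM per kb. EGFR, the epidermal growth factor receptor, was at 17.4 and 17.2 CPM per kb, and its interval overlapped that of EPHA4 in low but not in high glucose. RYK and PTK7, receptors of Wnt signalling, followed in the mean of both libraries. RYK was at 13.4 and 15.6 CPM per kb and PTK7 at 15.3 and 13.6 CPM per kb. The order after MET changed between the libraries, and in low glucose RYK was below ERBB4 (14.5 CPM per kb) and DDR1 (13.7 CPM per kb), a pair named after the values were seen. FGFR2 was first of the 41 kinases with a row under each length tried after seeing the data, but in the mean of both libraries its level was 41.1 times that of MET per kb of the longest transcript, 27.1 times that of MET without length, and 12.2 times that of EPHA4, then second, with the median length.

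**Figure D2:**
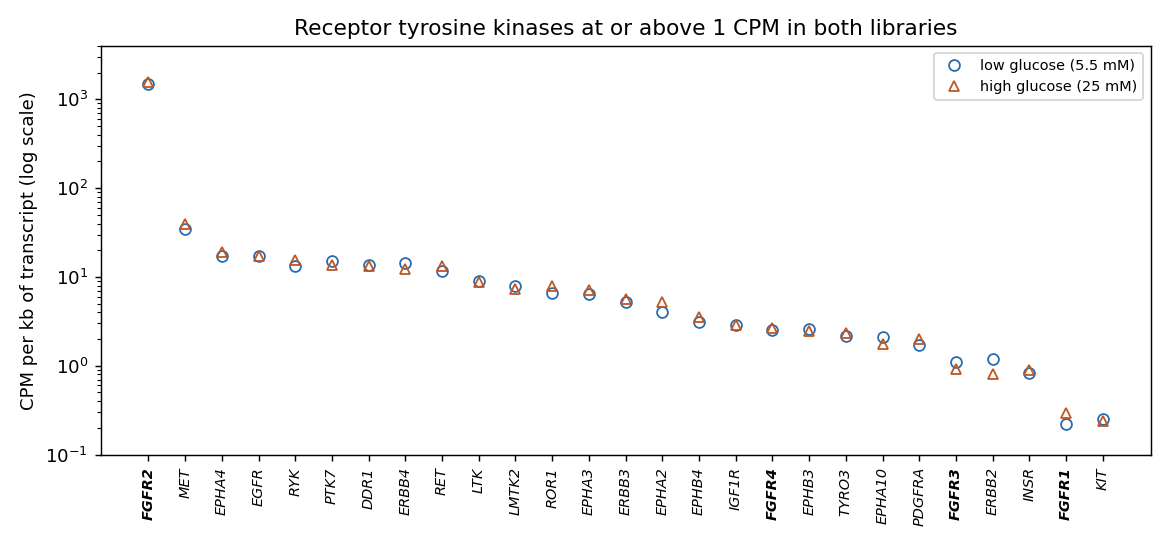
Level per kb of transcript (CPM per kb, log axis) of the 27 receptor tyrosine kinases at or above 1 CPM in both libraries, with a circle for low and a triangle for high glucose and the FGF receptors in bold. FGFR2 stands at 1472 and 1580 CPM per kb and the next gene, MET, at 34.8 and 39.4.

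The 5 genes nearest to FGFR2 in level, by Euclidean distance of log2 CPM over the 2 libraries, were COL14A1, NDUFB9, EEF1A1, ACTB and GAPDH. COL14A1, a collagen of the extracellular matrix, was at 6659 and 6991 CPM, a distance of 0.05. NDUFB9, a subunit of respiratory complex I, was at 7703 and 6665 CPM (distance 0.27), and the elongation factor EEF1A1 was at 7542 and 7812 CPM (0.29). The actin gene ACTB was at 5943 and 5575 CPM (0.33) and the glycolytic enzyme GAPDH at 5829 and 5457 CPM (0.37). The likeness is one of level in 2 libraries, in CPM without length.

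KLB was the highest of the 10 genes after FGFR2 in CPM, and NSMCE4A was so per kb of the longest transcript. With the median transcript length, FRS2 took that place and NSMCE4A came after it. KLB (chromosome 4, 39406853 to 39451536, plus strand) was at 119 CPM (114 to 123) and 105 CPM (101 to 110), or 19.5 and 17.3 CPM per kb. It stood above FGFR4, its partner for FGF19, which was at 2.54 and 2.67 CPM per kb. KL, the related co-receptor for FGF23, was at 0.472 and 0.474 CPM, with 10 and 9 estimated counts. FRS2, the adaptor that links the activated receptors to RAS (chromosome 12, 69470349 to 69579789, plus strand), was at 25.7 CPM (23.6 to 27.9) and 27.5 CPM (25.3 to 29.9). Its level per kb was 3.89 and 4.17 CPM, and FGFR2 was 379 times as high in each. This ratio was 53.5 with the median length, since the median of the FRS2 transcripts is much shorter than the longest. FRS3, the other adaptor of the family, was at 1.21 and 0.987 CPM. KL and FRS3 were named after their values were seen.

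Of 22 FGF ligand genes listed, 11 had a row and 4 reached 1 CPM in both libraries. FGF13, an intracellular member of the family that does not act through the receptors, was at 52.3 and 48.8 CPM. FGF12, of the same intracellular group, was at 14.7 and 13.3 CPM. FGF9, a secreted ligand, was at 40.1 and 39.7 CPM, and FGF5, also secreted, was at 9.36 and 11.1 CPM. FGF7 and FGF10, the ligands that mesenchyme makes for the epithelial form of FGFR2, and FGF19 had no row; these 3 were named after the table was seen. Genes with a total estimated count under 1 over both libraries were removed by the authors, and a low level of such ligands was not detectable at this depth.

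Of 15 heparan sulphate proteoglycans and FGF-binding proteins, 9 had a row and 8 reached 1 CPM in both libraries. SDC4 and SDC1, both syndecans, which are membrane proteoglycans that carry heparan sulphate, had the highest CPM of the list. SDC4 was at 58.1 and 60.2 CPM, and SDC1 at 27.0 and 30.6 CPM. The glypican GPC1, named after its values were seen, was close to SDC1 at 26.2 and 27.6 CPM. HSPG2, or perlecan, a proteoglycan of basement membranes, was at 19.0 and 18.6 CPM.

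All 23 listed genes of signal relay from the receptor, some of them outside the path to ERK, reached 1 CPM in both libraries. RPS6KA3, a kinase that ERK activates, was at 267 and 283 CPM. PTPN11, the phosphatase SHP2 that binds FRS2, was at 254 and 247 CPM. GAB1, a docking protein that joins the FRS2 complex, was lower at 18.5 and 22.2 CPM, and BRAF, a kinase between RAS and the ERK kinases, was at 47.5 and 42.3 CPM.

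Of 22 genes known as outputs or feedback inhibitors of ERK signalling, 20 had a row and 19 reached 1 CPM in both libraries. CCND1, the cyclin that starts the cell cycle, was at 585 and 652 CPM. ETV1, an ETS transcription factor, was at 295 and 299 CPM. DUSP6, a phosphatase that switches off ERK, was at 131 and 180 CPM, and SPRY1, a Sprouty inhibitor of receptor tyrosine kinase signalling, was at 67.8 and 62.5 CPM. These genes answer to many receptors, and their part in FGFR2 signalling was not tested.

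Of 8 regulators of the alternative FGFR2 exons, 7 had a row and 6 reached 1 CPM in both libraries. PTBP1, a repressor of exon inclusion, was at 437 and 422 CPM. MBNL1, a splicing factor of the muscleblind family, was at 201 and 216 CPM. The epithelial splicing factor ESRP2 was at 0.334 and 0.269 CPM, with 7 and 5 estimated counts, and ESRP1 had no row; both were named after their values were seen. Which FGFR2 splice form was made was not analysed here, because the table holds 1 value per gene.

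The genes around FGFR2 did not share its level. ATE1, an arginyltransferase that marks proteins for degradation, begins 142 kb beyond FGFR2 (121740421 to 121928801, minus strand). It was at 45.1 CPM (42.3 to 48.0) and 48.6 CPM (45.6 to 51.8), or 8.73 and 9.41 CPM per kb. NSMCE4A, a subunit of the SMC5/6 DNA repair complex, lies 359 kb beyond (121957088 to 121975217, minus strand). It was at 38.1 CPM (35.5 to 40.7) and 36.7 CPM (34.1 to 39.5), or 27.3 and 26.3 CPM per kb. WDR11, a WD-repeat protein of vesicle traffic, ends 569 kb before FGFR2 (120851175 to 120909524, plus strand), and was at 31.1 CPM (28.8 to 33.5) and 30.4 CPM (28.1 to 33.0), or 6.57 and 6.43 CPM per kb. FGFR2 per kb was 169 and 168 times ATE1, 53.9 and 60.0 times NSMCE4A, and 224 and 246 times WDR11. Among 11190 expressed protein-coding genes, the mean per kb of ATE1 was at percentile 49.2, that of NSMCE4A at 77.4 and that of WDR11 at 40.4, against 99.8 for FGFR2. Without division by length, ATE1 was the highest of the 3 and FGFR2 was 142 times as high in the mean of both libraries. ATE1, NSMCE4A and WDR11 are each overlapped by antisense genes with no row. Without strand, reads from the shared 75-base sequences (215 of 5650 for ATE1, 97 of 4881 for WDR11) cannot be told apart. NSMCE4A shared none.

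Within 3 Mb on either side of FGFR2 the annotation holds 41 other protein-coding genes, of which 33 had a row and 27 reached 1 CPM in both libraries. Their median was 6.50 CPM per kb, against 9.30 for all expressed protein-coding genes, and FGFR2 was 235 times this median. The highest was PRDX3, a mitochondrial peroxidase named after the values were seen, at 193 and 205 CPM per kb, and FGFR2 was 7.67 times as high in the mean. With the median length FGFR2 was 11.7 times PRDX3, and without length it was 17.9 times the highest gene, then EIF3A, a translation initiation factor, with these settings added and EIF3A named after the values were seen. The 5 expressed genes before FGFR2 (BAG3, INPP5F, MCMBP, SEC23IP and WDR11) had a median of 6.54 CPM per kb. The 5 after it (ATE1, NSMCE4A, TACC2, PLEKHA1 and HTRA1) had a median of 1.68 CPM per kb. Whether the DNA of this region is present in extra copies in these cells was not tested, as expression alone does not measure copy number.

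**Figure D3:**
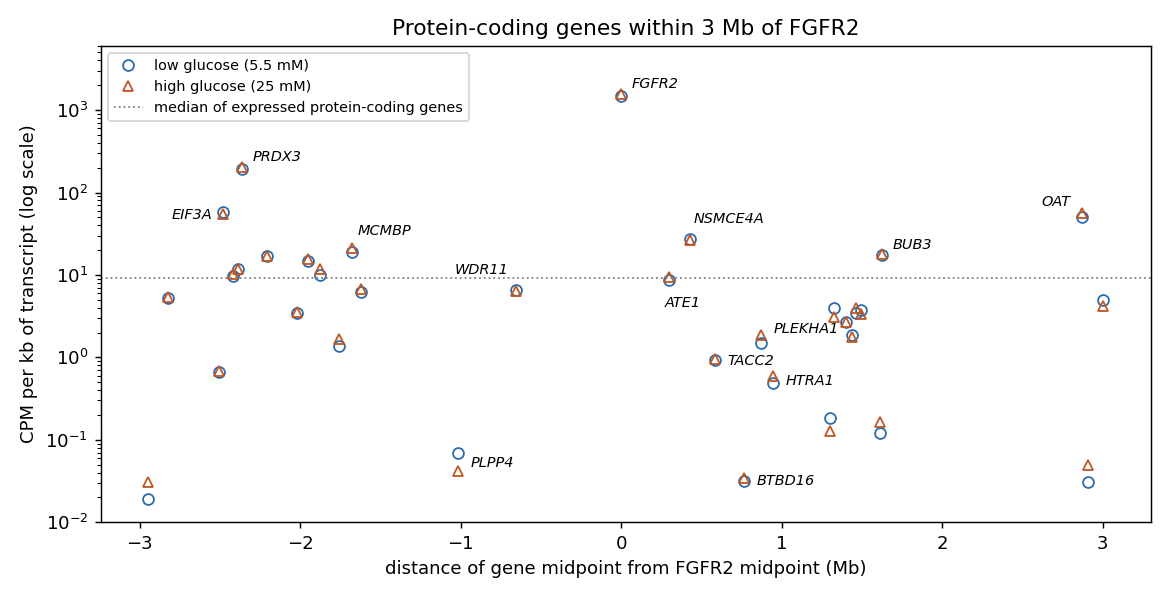
Level per kb of transcript (CPM per kb, log axis) of protein-coding genes within 3 Mb of FGFR2 against the distance of the gene's midpoint from that of FGFR2 in Mb, with circles for low and triangles for high glucose and a dotted line at 9.30, the median of expressed protein-coding genes. FGFR2 stands alone at 1472 and 1580 CPM per kb, and the highest of the other genes, PRDX3, lies at 193 and 205.

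The other genes of the 10q26 list were spread over a wide range. Before FGFR2, the co-chaperone BAG3 was at 10.1 and 11.9 CPM per kb, the phosphatase INPP5F at 1.36 and 1.65, the replication factor MCMBP at 19.1 and 21.2, and the vesicle coat partner SEC23IP at 6.29 and 6.78 CPM per kb. PLPP4, the gene between SEC23IP and WDR11 in the list, was at 0.104 and 0.0634 CPM, under the limit of 3 counts. After FGFR2, the centrosomal protein TACC2 was at 0.939 and 0.946 CPM per kb, the phosphoinositide-binding PLEKHA1 at 1.50 and 1.85, and the secreted protease HTRA1 at 0.483 and 0.587 CPM per kb. BTBD16, between TACC2 and PLEKHA1, was at 0.0582 and 0.0634 CPM, also under that limit. Further out, C10orf88 was at 2.67 and 2.65 CPM per kb, PSTK, a kinase acting on the seryl-tRNA from which selenocysteine is made, at 1.84 and 1.78, the zinc finger factor IKZF5 at 3.48 and 3.93, and the acyl-CoA dehydrogenase ACADSB at 3.80 and 3.38 CPM per kb. The spindle checkpoint gene BUB3 was at 17.4 and 17.8 CPM per kb. CUZD1 was at 0.532 and 0.371 CPM and the homeobox gene HMX2 at 0.196 and 0.269 CPM. The other 6 genes of the list had no row.

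The design sets high against low glucose, and none of the 10 genes reached a ratio of 2 between the libraries. A gene was called where its log2 ratio was 1 or more in size and its mean 1 CPM or more. Of the 13052 genes at that mean, 109 (0.835%) were called, 28 higher and 81 lower in high glucose. Of the 10 genes described here, 0 were called, and with 1 library a side no test or p-value was computed. Their log2 ratios had a median of 0.09 and ran from -0.28 to 0.40, against a median of -0.01 over all 13052 genes. In 3 of the 10 genes the counting interval left out 0, as it did in 31.7% of all genes at that mean, so the share is near the background. The log2 ratio of FGFR2 was 0.10 (0.09 to 0.11), and its interval is narrow because of its 139690 and 134510 estimated counts. Among the 9345 genes whose mean was 10 CPM or more, the size of this ratio was at percentile 51.9, and the log2 ratios had an SD of 0.16.

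FGFRL1 and KLB were the other genes whose interval left out 0. FGFRL1 was higher in high glucose, with a log2 ratio of 0.40 (0.15 to 0.65). KLB was lower, with a log2 ratio of -0.18 (-0.26 to -0.09). The log2 ratio was 0.38 for FGFR1 (-0.37 to 1.15), -0.28 for FGFR3 (-0.72 to 0.15) and 0.07 for FGFR4 (-0.25 to 0.39). These 3 receptors rest on few counts, and a difference of their size was not detectable at this depth. The log2 ratio was 0.10 for FRS2 (-0.07 to 0.28), 0.11 for ATE1 (-0.02 to 0.24), -0.05 for NSMCE4A (-0.20 to 0.09) and -0.03 for WDR11 (-0.19 to 0.13). Across the 27 expressed genes within 3 Mb of FGFR2, the log2 ratios had a median of 0.04, ran from -0.37 to 0.31, and 0 were called.

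**Figure D4:**
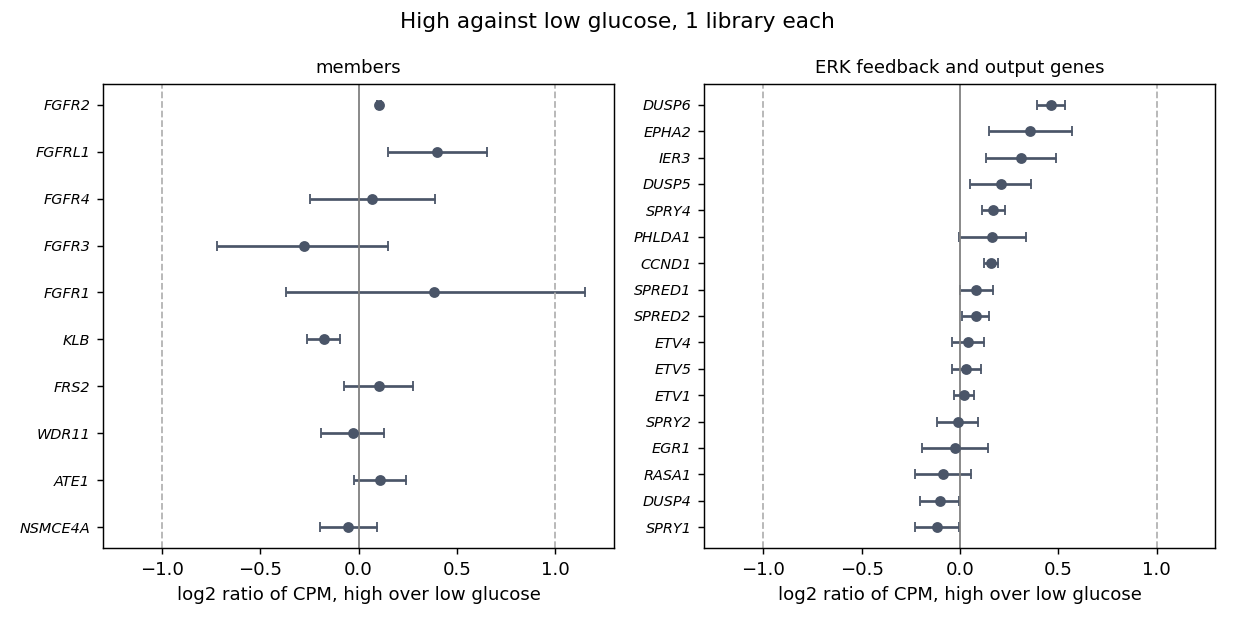
Log2 ratio of CPM in high over low glucose, with exact 95% counting intervals, for the 10 genes (left) and for the ERK feedback and output genes whose mean was 10 CPM or more (right), with a solid line at 0 and dashed lines at 1 and -1. All points lie between the dashed lines, and DUSP6 has the highest ratio of the right panel at 0.46.

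In the pathway lists, 0 genes were called as well. Of the 4 ligand genes whose mean was 1 CPM or more, 1 was higher and 3 were lower in high glucose (median log2 ratio -0.06), with FGF5 at 0.25 and FGF12 at -0.14. Of the 8 proteoglycans and binding proteins, 3 were higher and 5 lower (median -0.04, but 0.063 over those with a mean of 10 CPM or more), and SDC1 was at 0.18 and HSPG2 at -0.03. Of the 23 relay genes, 17 were higher and 6 lower (median 0.06), with GAB1 at 0.26 and BRAF at -0.17. Of the 19 ERK feedback and output genes, 14 were higher and 5 lower (median 0.08). DUSP6 had a log2 ratio of 0.46 (0.39 to 0.53) and SPRY1 one of -0.12 (-0.23 to -0.01). Of the 6 splicing regulators, 5 were higher and 1 lower (median 0.08), and the log2 ratio was -0.05 for PTBP1 and 0.10 for MBNL1. Of the 27 receptor tyrosine kinases, 15 were higher and 12 lower (median 0.09). Over all 13052 genes, 6340 were higher and 6712 lower.

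The line was checked against markers of its labelled type. Of 8 enteroendocrine markers, 7 reached 1 CPM in both libraries. GCG, which encodes proglucagon, was at 1954 and 1808 CPM, whereas SCG5 was at 6.09 and 4.12 CPM and PAX6 at 1.41 and 1.19 CPM. NEUROD1 had no row. Of 6 gut epithelial markers, 5 reached 1 CPM, with the keratin KRT8 at 270 and 291 CPM but EPCAM at 3.37 and 3.50 CPM. The adhesion gene CDH1, however, was at 0.0582 and 0.166 CPM, with 1 and 3 estimated counts. Of 6 fibroblast markers, 3 reached 1 CPM, with COL3A1 at 815 and 742 CPM and LUM at 177 and 181 CPM, whereas COL1A1 was at 0.0582 and 0.115 CPM and DCN had no row. The summed levels of the fibroblast list were 996 and 928 CPM, those of the blood list 0.853 and 1.41 CPM and those of the endothelial list 1.05 and 0.806 CPM. None of the 5 blood and 4 endothelial markers reached 1 CPM in both libraries. Between the libraries, 5 gut epithelial markers were higher in high glucose and 0 lower (median log2 ratio 0.22, with 4 intervals above 0), with VIL1 at 0.61 and CDX2 at 0.33. Of the enteroendocrine markers, 2 were higher and 5 lower (median -0.11, with 1 interval above and 4 below 0). Of the fibroblast markers, 2 were higher and 1 lower (median 0.03, with 0 intervals above and 1 below 0). The 1 below was COL3A1, at -0.14 (-0.17 to -0.10). In all, 0 markers of any list were called. The relation of these markers to the level of FGFR2 was not tested.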

How the data were processed

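RNA was sequenced by the authors from polyadenylated TruSeq v2 libraries, 1 for each glucose concentration. They trimmed reads (Trim Galore 0.5.0), aligned paired reads of 75 bases to GRCh38 with GENCODE release 28 models (STAR 2.6.0), estimated counts per gene (RSEM 1.3.1) and removed genes with almost no counts. The deposited values are CPM, and the log2 of these, of 19989 genes in each library, and they hold a prior of 0.25 counts. The study's methods name TMM normalization and give the prior in CPM, but the deposited CPM, less the prior, add to the full library total in both libraries, so no TMM factor is visible in them. Columns of the authors' mean, log2 difference and fold over both libraries were not used. The steps between low CPM gave the worth of 1 count and the library totals, 21758000 and 19457000 counts after rounding. Under 10 CPM, 73.8% and 74.0% of values above 0 were whole counts within 0.05, and no count model was run.

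CPM were therefore divided by a TMM factor (0.998 and 1.00) computed with scipy 1.17.1, pandas 2.3.3 and numpy 2.4.6 under Python 3.11.15. Figures were drawn with matplotlib 3.10.9. Intervals are Wilson for CPM and exact binomial for log2 ratios, both at 95%. Transcript lengths, positions and printed sequences came from GENCODE release 29 on GRCh38, in which 73.4% of symbols were found. The calculations were tested on simulated whole counts with counting error only. The estimated counts of the study are not all whole, and spread between replicates was not simulated. Members and lists were chosen with earlier results of these data known. Named genes were all 10 members; in each pathway list the 2 highest in mean CPM and the highest and lowest log2 ratio among genes averaging 10 CPM or more; the 10q26 list genes with a row; the 5 receptor tyrosine kinases highest per kb after FGFR2; the 5 genes nearest FGFR2 in level; and the cell type markers. Alternatives changed the scaling, pseudocount, filter, threshold and transcript length, or left out 1 library.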

Additional observations from a re-analysis of the deposited data

How the results depend on the processing

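No paired analysis was possible because there is 1 library for low and 1 for high glucose. Of 201 values recomputed over 57 results, 160 moved by less than their error or, for counts and ranks, by a small margin, and 41 moved further, of which 1, the median log2 ratio of the proteoglycans, changed sign. For the ratios of FGFR2 to other genes, the error was taken from the difference between the libraries. Leaving out 1 library could therefore not count as a move there, and those values are among the 160. Most of the moves came from transcript length. The mean level of FGFR2 per kb was 426 times that of the next receptor. It was 240 times with the median transcript length, 511 times without length and 608 times with the transcript of the longest coding sequence, a choice made after seeing the data. Over the highest of ATE1, NSMCE4A and WDR11, FGFR2 was 56.9 times as high, against 81.5, 142 and 81.2 times under the same settings. FGFR2 was first of the receptors under each, and its rank of 4 in CPM was 19 per kb. Leaving out 1 library gave 387 to 476 times the next receptor, 53.9 to 60.0 times the highest neighbour and a rank of 3 to 4. The count of 109 genes past the log2 ratio of 1, of which 74.3% were lower in high glucose, was 2932 (58.6% lower) with no filter, 9 (55.6% lower) at a mean of at least 10 CPM and 31 (77.4% lower) with a pseudocount of 1 CPM. The median log2 ratio of the proteoglycans was 0.063 at a mean of at least 10 CPM against -0.04, and 5 of them reached 5 CPM where 8 reached 1 CPM. With 1 library on each side, culture, library preparation and glucose cannot be told apart.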
